A study of Homo sapiens with 4 samples.

Results

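Transcripts of 10 genes used as markers of the invasive and dedifferentiated states of melanoma were followed in A375, a human melanoma line long kept in culture, with and without octanoate. The 10 were picked by name from a table of 56832 genes, with earlier results of these data known. They were AXL, NGFR, PDGFRB, WNT5A, ROR2, SOX9, TGFBI, TNC, SPARC and NT5E. All 10 were present, and all 10 were among the 20250 genes tested, whose normalised counts averaged 10 or more. The octanoate group was wild-type A375 kept for 48 h with 1 mM octanoate, a medium-chain fatty acid, and the vehicle group was the same line kept for 48 h with isopropanol, the solvent. Both groups grew in DMEM with serum, and each was sequenced as 2 libraries. One line cannot stand for melanoma in general. The labels do not say whether the 2 libraries of a group came from separate cultures. The spread between libraries behind the p-values, pooled in part across genes, may thus be technical.

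Melanoma cells can move between a pigmented, MITF-driven state and states with more migration and less pigment gene expression. The invasive state is known for AXL, WNT5A and matrix genes, and a state resembling the neural crest, the embryonic source of melanocytes, is known for NGFR. The markers work at several levels: receptors at the surface, a secreted WNT ligand with its receptor, a transcription factor, matrix proteins, and an enzyme that makes adenosine outside the cell.

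The recovered reads per library ranged from 67785956 to 78005035. Normalised counts are reads divided by 1 factor per library, so a gene's values can be set side by side across libraries. The melanoma label was checked on melanocyte lineage genes. SOX10, the lineage factor, had 41363 and 37790 normalised counts in vehicle and 39112 and 34072 in octanoate, and MITF, the regulator of pigment genes, had 3533 and 3330 against 2414 and 2511. The pigment gene MLANA had only 49.1 and 34.9 in vehicle and 39.5 and 52.0 in octanoate. The line thus held SOX10 and MITF transcripts with few transcripts of pigment genes. Of 9 fibroblast markers, 7 were tested. The summed normalised count of all 9 was 1512 and 1513 in vehicle and 1337 and 1283 in octanoate. By limma 0 fibroblast markers were higher, also at an unadjusted p under 0.05 and by edgeR and DESeq2, and 2 were lower. Of 5 blood cell markers only CD14 passed the filter, and all 5 together summed to 29.1 to 36.3 in vehicle and 26.0 to 28.2 in octanoate. The 5 endothelial markers summed to 673 and 682 in vehicle and 1144 and 1121 in octanoate, with TIE1, PECAM1 and VWF higher. The 5 keratinocyte markers summed to 6714 and 5683 in vehicle and 6447 and 4793 in octanoate, with KRT1 at 0 in every library and 1 of 2 tested genes lower. Most of that sum was KRT10, which was not called. The lower gene, KRT14, fell from 1110 and 942 to 266 and 218 (log2 difference -2.08, adjusted limma p 2.40e-13). The part of these other marker lists in the results on the 10 genes was not tested.

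The 10 markers did not move together. Under octanoate NT5E, ROR2 and AXL rose, TGFBI, NGFR and WNT5A fell, and SOX9, TNC, SPARC and PDGFRB did not pass the test. In these bulk libraries fewer cells of a kind and less RNA per cell cannot be told apart. The test was limma on log2(normalised count + 1), two-sided, with Benjamini-Hochberg adjustment over all 20250 genes. A call was an adjusted p under 0.05. The fit draws each gene's variance toward that of genes of like abundance. A very small p therefore does not rest on that gene's own 4 libraries alone. The test called 6 of 10 markers, where 29.9% of all tested genes were called in either direction, 16.2% higher and 13.7% lower. Of all calls 54.1% were higher. Over the 15141 genes matched in the GENCODE 29 annotation the share was 52.7%, and 42.6% with trends on GC content and exon length removed. The call depends on abundance, so abundant markers were also read alone: 8 markers had a mean of at least 1000, and 5 of these were called, against 38.1% of all genes at that level. The groups did not overlap for 7 of 10 markers, against 63.1% of tested genes. The median log2 difference of the markers was 0.03, against 0.01 over all genes tested, and the median absolute difference was 0.38 against 0.19. A call with a change of at least 2-fold was reached by 3 markers, ROR2, NT5E and TGFBI, against 4.21% of tested genes.

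**Figure D1:**
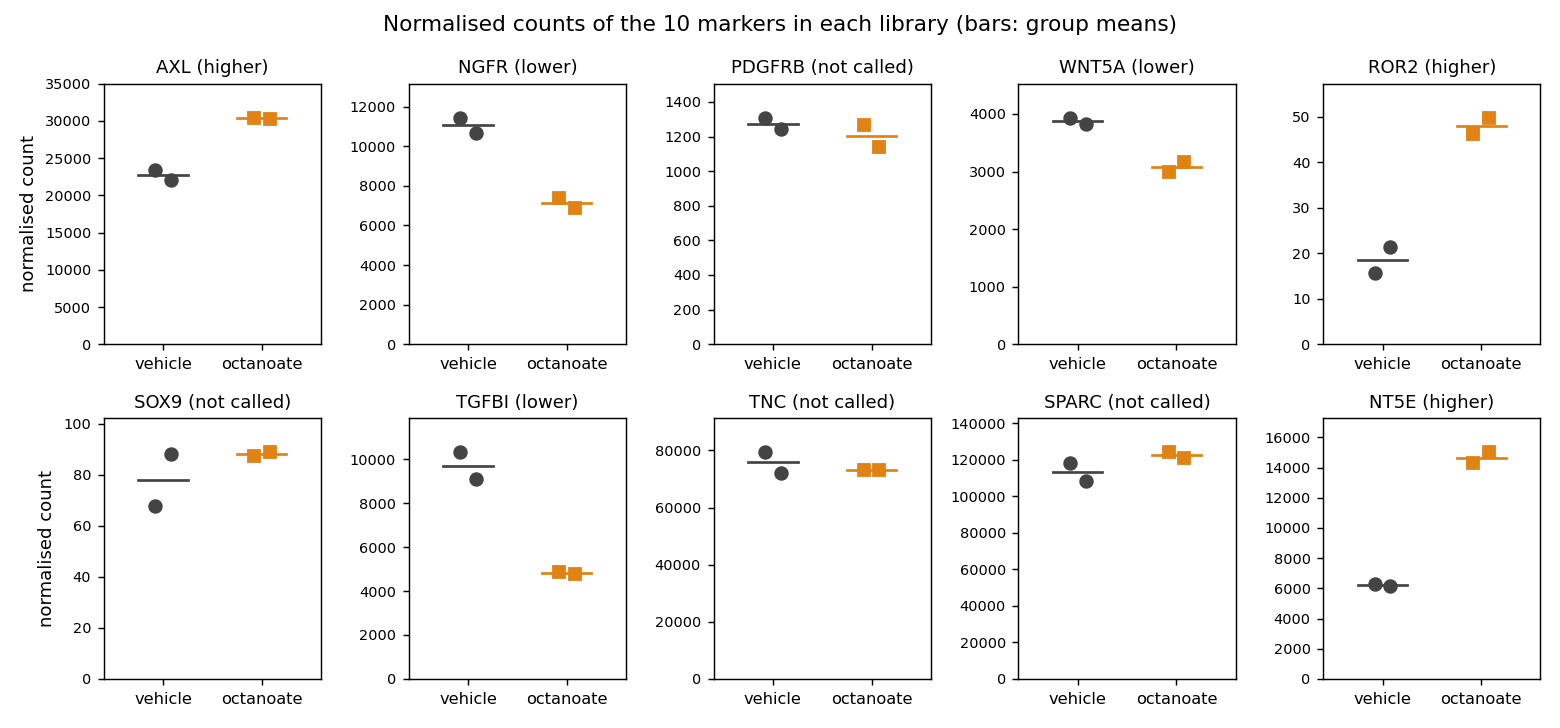
Normalised count (y axis, from 0) of each of the 10 markers in the 2 vehicle libraries (circles) and the 2 octanoate libraries (squares), with horizontal bars for group means and the limma call in each title. NT5E, ROR2 and AXL lie higher in both octanoate libraries, TGFBI, NGFR and WNT5A lie lower, and the groups overlap for SOX9, TNC and PDGFRB.

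Bases before the start of 3 called markers are printed because these genes changed in opposite directions: AXL and ROR2 rose and TGFBI fell. They come from RefSeq on GRCh38.p14, 5′ to 3′ on the gene's strand, limited to bases outside exons of GENCODE 29, and capitals mark matches to GGGCGG, the GC box, on either strand. The AXL bases hold 2, those of ROR2 hold 4, and those of TGFBI hold none, since its GC boxes lie closer to the start. The AXL bases lie at chr19:41218973-41219202 (plus strand), those of ROR2 at chr9:91950229-91950478 (minus strand) and those of TGFBI at chr5:136028738-136028894 (plus strand).
AXL: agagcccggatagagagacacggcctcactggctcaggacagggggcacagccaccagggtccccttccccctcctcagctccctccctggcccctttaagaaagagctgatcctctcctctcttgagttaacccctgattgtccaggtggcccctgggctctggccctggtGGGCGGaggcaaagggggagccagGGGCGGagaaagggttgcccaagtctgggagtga
ROR2: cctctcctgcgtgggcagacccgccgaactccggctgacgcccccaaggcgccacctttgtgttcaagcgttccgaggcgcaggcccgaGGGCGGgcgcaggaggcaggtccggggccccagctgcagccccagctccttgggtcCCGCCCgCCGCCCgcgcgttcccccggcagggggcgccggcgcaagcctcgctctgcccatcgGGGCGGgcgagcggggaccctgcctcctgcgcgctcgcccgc
TGFBI: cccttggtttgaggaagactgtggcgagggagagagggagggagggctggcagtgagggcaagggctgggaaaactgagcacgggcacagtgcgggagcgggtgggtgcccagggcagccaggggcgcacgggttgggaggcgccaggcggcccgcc
The ROR2 bases were 78% G or C, those of TGFBI 71.3% and those of AXL 63.9%.

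RefSeq promoter windows matched 8 of the 10 markers, with 10 windows in all because AXL and WNT5A have more than 1. In the 250 bases before each start, on both strands, a GC box was found in 7 of the 10 windows, 1 for each of 7 genes, against 42.6% of 35116 windows of the same length. Rising genes (AXL, NT5E, ROR2), falling genes (TGFBI, WNT5A) and genes not called (PDGFRB, TNC) all held one. GGAATG, the core bound by TEAD factors, was found in 2 of the 10 windows, the second of AXL and that of SPARC, against 11.9% of windows. TGANTCA, the AP-1 site, TGACGTCA, the cAMP response element, and TATAAA, the TATA box, were found in 0 of the 10, against 6.57%, 1.65% and 10.7% of windows. A match or its absence describes these letters only, and no binding was measured.

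AXL, a receptor tyrosine kinase of the TAM family that binds GAS6, lies at chr19:41219203-41261766 (plus strand, GRCh38). Its normalised count was 23437 and 22061 in vehicle and 30450 and 30298 in octanoate. Both octanoate libraries were above both vehicle libraries by far more than either pair differed. The mean rose 1.34-fold, a log2 difference of 0.42 (SE 0.06, 95% confidence interval 0.30 to 0.54, adjusted limma p 4.33e-06). Without an intensity trend in the variance prior the same difference had a limma p of 0.0536 after adjustment.

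Of the other genes of the AXL system, the ligand GAS6 rose and the receptor TYRO3 fell. GAS6, the ligand, had 592 and 513 normalised counts in vehicle and 806 and 708 in octanoate, and was higher by 0.45 in log2 units (SE 0.09, adjusted limma p 0.000678). PROS1, the second TAM ligand, had 1260 and 1257 against 1427 and 1398, which did not pass (adjusted limma p 0.0788). The receptor TYRO3 fell, from 4760 and 4315 to 3971 and 3718, with a log2 difference at -0.24 (SE 0.06, adjusted limma p 0.00601). MERTK, the third receptor, was near the detection floor at 20.6 and 22.3 against 37.5 and 27.1 and did not pass (adjusted limma p 0.208). Of these 4 genes, 1 was thus higher and 1 lower, and without vehicle 1 or without octanoate 2 the call of TYRO3 was lost, leaving 1. Both calls were lost without an intensity trend, and also when every gene with a read was tested.

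NGFR, the p75 receptor for neurotrophins and a marker of neural crest-like melanoma cells, lies at chr17:49495293-49515017 (plus strand). Its normalised count was 11444 and 10653 in vehicle and 7401 and 6899 in octanoate. The groups were well apart, with both octanoate libraries lower. The mean fell to 0.647 of vehicle, a log2 difference of -0.63 (SE 0.06, 95% confidence interval -0.75 to -0.50, adjusted limma p 1.35e-08). NGFR was called lower under all 16 alternative settings.

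Around NGFR, its coreceptors and its relatives split. The ligand BDNF rose from 259 and 254 to 419 and 438 (log2 difference 0.74, SE 0.11, adjusted limma p 8.40e-06). SORT1, which encodes sortilin, a partner of p75 in binding proneurotrophins, fell from 4087 and 3755 to 2432 and 2484 (log2 difference -0.67, SE 0.06, adjusted limma p 1.25e-08). LINGO1, another p75 partner, rose by 0.89 in log2 units (adjusted limma p 0.000111), while MAGED1, an adaptor that binds p75, fell by 0.24 in log2 units (adjusted limma p 0.00334), a call lost without vehicle 1. NTRK3 was lower too (log2 difference -1.32, adjusted limma p 0.0208), though this rested on 18.6 and 41.7 against 8.66 and 13.0 normalised counts and was lost without vehicle 2 or without octanoate 1. Of the 12 genes of this list 9 were tested, with 3 higher, 3 lower and a median log2 difference of -0.15. NTF3 had 0 reads in every library.

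PDGFRB, the beta receptor for platelet-derived growth factors, lies at chr5:150113837-150155872 (minus strand). Its normalised count was 1309 and 1241 in vehicle and 1266 and 1138 in octanoate, so the groups overlapped. The log2 difference was -0.09 (95% confidence interval -0.24 to 0.07, adjusted limma p 0.427). Its ligand genes did change: PDGFB fell from 363 and 327 to 126 and 165 (log2 difference -1.25, SE 0.14, adjusted limma p 1.30e-07), and PDGFD fell by 0.56 in log2 units (adjusted limma p 0.00210). PDGFA and PDGFC were higher by 0.26 and 0.23 in log2 units (adjusted limma p 0.0362 and 0.0411). PDGFRA, the alpha receptor, had 228 and 204 against 219 and 189 and did not pass (adjusted limma p 0.682). Of the 6 PDGF genes, 2 were higher and 2 lower, and without either vehicle library only 2 of the 4 calls were made, since those of PDGFA and PDGFC were lost; DESeq2 called the same 2 as lower and 0 as higher.

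WNT5A encodes a secreted ligand of the beta-catenin-independent WNT pathway, and ROR2 encodes one of its receptors. WNT5A lies at chr3:55465715-55490539 (minus strand). It had 3936 and 3834 normalised counts in vehicle and 2996 and 3173 in octanoate, lower in both treated libraries. The mean was 0.794 of vehicle, a log2 difference of -0.33 (SE 0.06, 95% confidence interval -0.46 to -0.21, adjusted limma p 0.000180). Without an intensity trend the adjusted limma p was 0.0744.

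ROR2, at chr9:91563091-91950162 (minus strand), went the other way from a very low level. It had 15.7 and 21.3 normalised counts in vehicle and 46.2 and 49.9 in octanoate. These rest on 16 and 22 reads against 48 and 46. The exact Poisson intervals at 95%, which cover counting error only, ran from 9.15 to 33.3 reads over the vehicle libraries and from 33.7 to 63.6 over the octanoate libraries, so that they nearly met. The log2 difference was 1.34 (SE 0.30, adjusted limma p 0.00140), with a wide 95% confidence interval of 0.72 to 1.97. In the authors' deposited table the adjusted p of ROR2 was 0.0371.

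ROR1, the relative of ROR2 and present at a higher level, fell from 850 and 853 to 664 and 694 normalised counts (log2 difference -0.33, SE 0.08, adjusted limma p 0.00362). Among the Frizzled receptors FZD1 fell from 4656 and 4198 to 2891 and 2702 (log2 difference -0.66, SE 0.07, adjusted limma p 2.58e-08) and FZD2 fell by 0.26 in log2 units (adjusted limma p 0.0175). The other tested Frizzled genes did not pass. RYK, a further WNT5A receptor, had 9185 and 8884 against 9315 and 8779 (log2 difference 0.00, adjusted limma p 0.989). DVL1, a cytoplasmic transducer, rose by 0.45 (adjusted limma p 3.48e-06), whereas its relative DVL2 fell by 0.17 (adjusted limma p 0.0367), both in log2 units. VANGL2 was higher by 0.31 and VANGL1 lower by 0.20 in log2 units, and both encode planar polarity proteins (adjusted limma p 0.00260 and 0.0145). Of 26 genes for WNT5A receptors and planar polarity 25 were tested, with 4 higher, 7 lower and a median log2 difference of -0.03. Without vehicle 1 or without octanoate 2 this fell to 6 calls, and those of FZD2, DVL2 and VANGL1 were among the lost.

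Of 17 targets and inhibitors of the beta-catenin branch 11 were tested, 5 were higher and 0 lower by limma, with a median log2 difference of 0.27. The 5 were NKD1, NKD2, DKK1, DKK2 and SFRP1. By edgeR 5 were higher too, and by DESeq2 4, which did not call NKD1. AXIN2, LEF1 and TCF7 did not pass, with log2 differences of 0.19, -0.08 and -0.14 (adjusted limma p 0.771, 0.373 and 0.388). At an unadjusted limma p under 0.05, 1 gene of the list was lower, and edgeR called 1 lower and DESeq2 0. SFRP1, a secreted WNT inhibitor, rose from 31006 and 28524 to 47146 and 47257 normalised counts (log2 difference 0.67, SE 0.06, adjusted limma p 5.46e-09). DKK2, another secreted modulator, rose from 24.5 and 16.5 to 73.2 and 55.3 (log2 difference 1.61, SE 0.29, adjusted limma p 0.000126). This was near the detection floor, at 25 and 17 reads against 76 and 51.

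SOX9, a transcription factor of neural crest and cartilage cells, lies at chr17:72121020-72126420 (plus strand). It had 67.7 and 88.2 normalised counts in vehicle and 87.6 and 88.9 in octanoate. Vehicle 2 was as high as both treated libraries, so the groups overlapped. The log2 difference was 0.19 with a 95% confidence interval of -0.21 to 0.59 (adjusted limma p 0.504). At 69 to 91 reads per library a change of that size was not detectable.

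Other SOX genes were measured more deeply. SOX10 did not pass (log2 difference -0.12, adjusted limma p 0.209). SOX11 fell from 8654 and 8459 to 6258 and 6186 normalised counts (log2 difference -0.46, SE 0.06, adjusted limma p 7.85e-07), and SOX5 and SOX6 were lower by 0.17 and 0.43 in log2 units (adjusted limma p 0.0238 and 0.0259), calls that each rested on certain libraries. That of SOX5 was lost without vehicle 1, octanoate 1 or octanoate 2, and that of SOX6 without vehicle 2 or octanoate 1. SOX8, which is closely related to SOX9 and SOX10, rose from 201 and 172 to 317 and 271 (log2 difference 0.65, SE 0.13, adjusted limma p 0.000406), and SOX4 rose by 0.28 (adjusted limma p 0.00300). All 9 were tested, with 2 higher, 3 lower and a median log2 difference of -0.12.

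**Figure D2:**
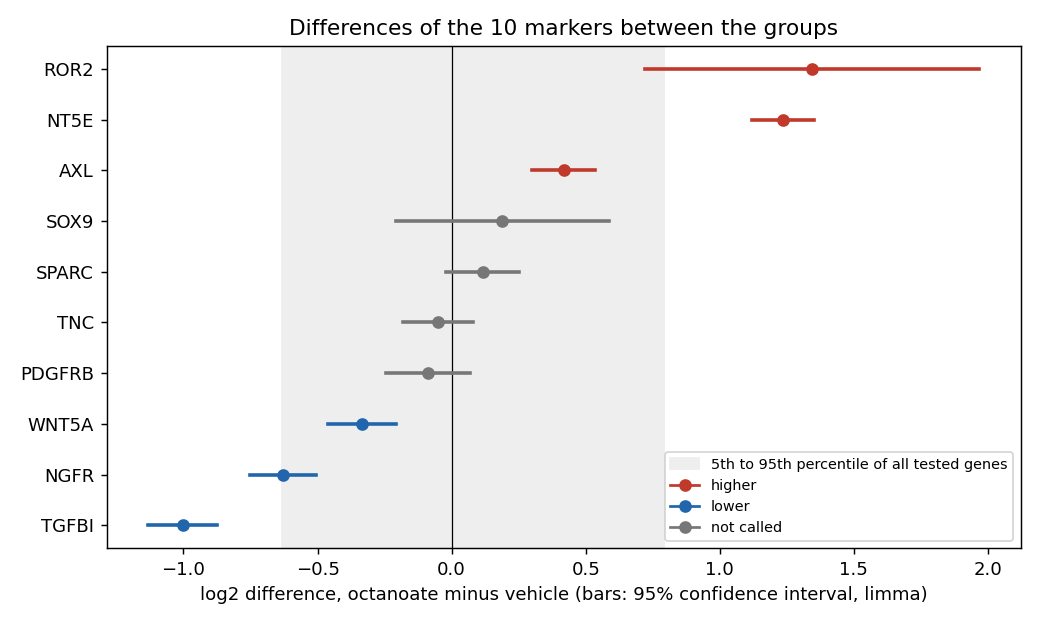
Log2 difference between octanoate and vehicle (x axis) for each of the 10 markers, with 95% confidence intervals from limma as horizontal bars, coloured by call. The grey band spans the 5th to the 95th percentile of all tested genes, from -0.63 to 0.79; ROR2 and NT5E lie to its right and TGFBI to its left, and the intervals of SOX9, SPARC, TNC and PDGFRB include 0.

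The 3 matrix markers behaved differently from one another. TGFBI, a secreted protein induced by TGF-beta that binds collagens and integrins, lies at chr5:136028895-136063818 (plus strand). Its normalised count was 10306 and 9073 in vehicle and 4859 and 4796 in octanoate, close in the treated libraries and far below either control. The mean fell to 0.498 of vehicle, with a 95% confidence interval of -1.13 to -0.87 for the log2 difference (SE 0.06, adjusted limma p 8.74e-12). Only 1.94% of tested genes had a lower difference.

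TNC, which encodes tenascin C, an anti-adhesive matrix glycoprotein, lies at chr9:115019578-115118257 (minus strand). It had 79338 and 72280 normalised counts in vehicle and 73286 and 73009 in octanoate, and the treated values lay between the controls. The log2 difference was -0.05 with a 95% confidence interval of -0.18 to 0.08 (adjusted limma p 0.606). Without vehicle 1 its sign turned, to 0.02.

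SPARC, which encodes a collagen-binding glycoprotein also called osteonectin, lies at chr5:151661096-151687165 (minus strand). It had 117910 and 108311 in vehicle and 123966 and 120954 in octanoate. The treated libraries were both above the controls, yet by less than the spread of the vehicle pair. The log2 difference was 0.12 with a 95% confidence interval of -0.02 to 0.25, and the test was not passed (adjusted limma p 0.201).

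Relatives of these matrix genes were mostly low or rising. SMOC1, a member of the SPARC family, rose from 558 and 470 to 1120 and 1076 normalised counts (log2 difference 1.10, SE 0.09, adjusted limma p 1.02e-09). FSTL1 and SPOCK1, of the same family, rose by 0.50 and 0.28 in log2 units (adjusted limma p 7.01e-06 and 0.000551), and the tenascin gene TNXB was higher by 0.28 (adjusted limma p 0.0364), a call lost when any 1 library was left out. Of 12 such genes 7 were tested, 4 were higher and 0 lower by limma, with a median log2 difference of 0.28. None was lower at an unadjusted p under 0.05 or by edgeR or DESeq2 either. POSTN, the closest relative of TGFBI, had 12.8 and 8.72 in vehicle and 2.89 and 1.08 in octanoate, too low to test.

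Because TGFBI is named for its induction by TGF-beta, genes of that pathway were read beside it. TGFB2 fell from 167 and 182 to 66.4 and 61.8 (log2 difference -1.43, SE 0.17, adjusted limma p 3.93e-07), and SMAD6, an inhibitory SMAD, fell from 2448 and 2301 to 1679 and 1473 (log2 difference -0.59, SE 0.07, adjusted limma p 7.05e-07). INHBA, which encodes the activin A subunit, rose from 12322 and 11737 to 32430 and 34195 (log2 difference 1.47, SE 0.06, adjusted limma p 1.40e-15). All 20 genes were tested, with 7 higher, 5 lower and a median log2 difference of 0.01, and there were 8 calls without vehicle 2.

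NT5E encodes CD73, the surface enzyme that turns AMP into adenosine outside the cell. It lies at chr6:85449584-85495791 (plus strand). Its normalised count was 6277 and 6178 in vehicle and 14322 and 15002 in octanoate. The 2 libraries of each group were close and the groups far apart. The mean rose 2.35-fold, a log2 difference of 1.23 (SE 0.06, 95% confidence interval 1.12 to 1.35). It had the smallest p of the 10 markers (adjusted limma p 2.67e-14), and 98.2% of tested genes had a lower difference.

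The enzymes and receptors around NT5E changed less. ENTPD1, which encodes CD39, the enzyme that supplies AMP from ATP, had 681 and 665 normalised counts in vehicle and 628 and 715 in octanoate (log2 difference -0.01, adjusted limma p 0.969). The adenosine transporters SLC29A1 and SLC29A2 were higher by 0.19 and 0.46 in log2 units (adjusted limma p 0.0251 and 0.000114), and PNP, which breaks down inosine, was higher by 0.27 (adjusted limma p 0.00183). ADORA1, an adenosine receptor, fell from 1244 and 1153 to 810 and 774 (log2 difference -0.60, SE 0.08, adjusted limma p 2.21e-06). Of 15 such genes 11 were tested, with 3 higher, 1 lower and a median log2 difference of 0.09, and 2 calls were left without vehicle 2, where those of PNP and SLC29A1 were lost. ADORA2B, the low-affinity adenosine receptor, had 1957 and 1927 against 2056 and 1917 (log2 difference 0.03, adjusted limma p 0.769).

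**Figure D3:**
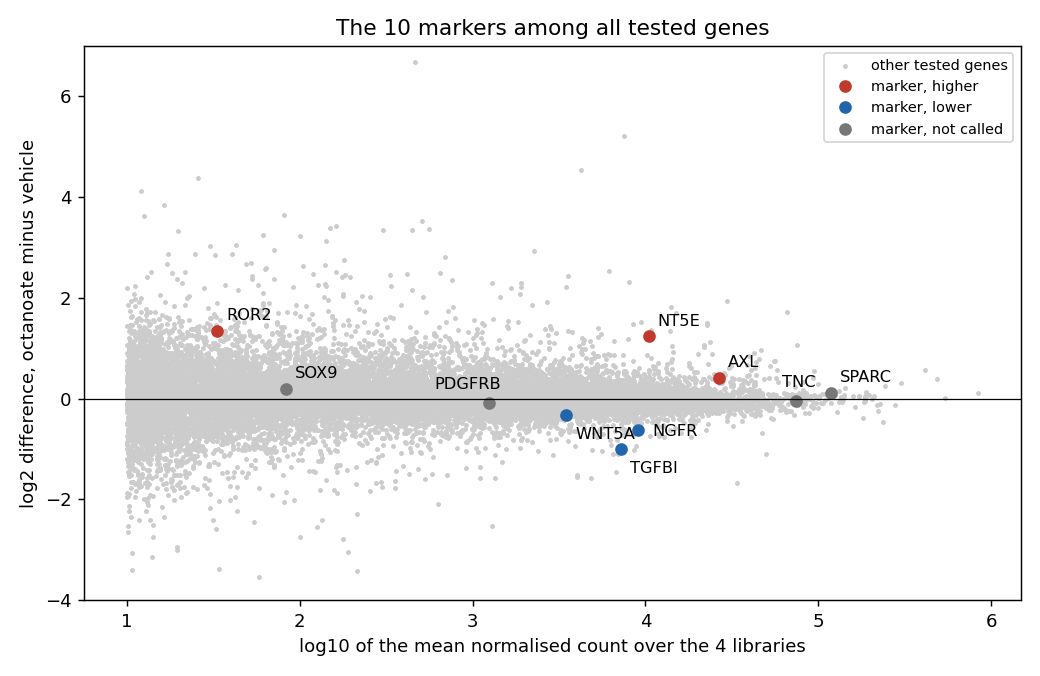
Log2 difference between octanoate and vehicle (y axis) against the log10 of the mean normalised count over the 4 libraries (x axis) for the 20250 tested genes in grey, with the 10 markers in colour by call. ROR2 and SOX9 lie where the grey cloud is wide, NT5E stands above it at a mean of 10445, and TNC and SPARC lie near 0 at its abundant end.

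To compare levels between genes, counts were divided by the merged length of all exons annotated for the gene in GENCODE 29. This was 7.81 kilobases for TGFBI and 4.53 for NT5E. A single transcript can be shorter than its gene's merged exons, and which transcripts were present was not measured. The order below therefore holds for this length only. In vehicle SPARC was highest at 24407 and 22420 normalised counts per kilobase and ranked 91 of 15141 genes found in that annotation. TNC followed at 8234 and 7501, then AXL at 4547 and 4280, NGFR at 2758 and 2567, and NT5E at 1385 and 1363. TGFBI came next at 1320 and 1162, before WNT5A at 532 and 518, PDGFRB at 183 and 174, SOX9 at 17.2 and 22.4 and ROR2 at 2.70 and 3.66 per kilobase. No neighbours in this order overlapped in either group, though NT5E and TGFBI were close in vehicle. In octanoate the order differed at 1 place: NT5E, at 3159 and 3310 per kilobase, stood above NGFR, at 1783 and 1662. The gap between NT5E and TGFBI widened as well, since TGFBI was then at 622 and 614 per kilobase.

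Counts of some markers may hold reads of other genes, because whether counting used the strand is not given in the sources used here. In GENCODE 29 exons of AXL overlap those of 1 gene on the opposite strand by 67 bases. Those of NGFR overlap 2 such genes, by 924 and 202 bases, and those of TNC and SPARC 1 each, by 129 and 381 bases. The gene opposite TNC, DEC1, had 14 and 9 reads in vehicle and 12 and 2 in octanoate, while TNC had at least 72280 normalised counts in every library. No opposite-strand overlap and no transcript sequence shared with another gene over 100 bases or more at 95% identity was found for WNT5A, ROR2, SOX9, TGFBI, PDGFRB or NT5E.

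In the authors' deposited table the same 6 markers had an adjusted p under 0.05, with the same signs, where 12.9% of its 33533 genes did. Nothing is read from that share either. The log2 fold change was 1.24 for NT5E, 0.42 for AXL, 1.37 for ROR2, -1.01 for TGFBI, -0.63 for NGFR and -0.33 for WNT5A in the authors' deposited table.

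Other genes of the same cell states were described beside the 10 markers. Of 34 further invasive state genes 33 were tested, with 18 higher, 9 lower and a median log2 difference of 0.24. JUN, a subunit of the AP-1 transcription factor, rose from 1648 and 1514 to 4221 and 4015 normalised counts (log2 difference 1.38, SE 0.07, adjusted limma p 5.34e-14). PLAUR, the urokinase receptor, rose from 2700 and 2490 to 6084 and 5915 (log2 difference 1.21, SE 0.06, adjusted limma p 1.95e-13). MMP2, a gelatinase, fell from 15795 and 14056 to 10519 and 9618 (log2 difference -0.57, SE 0.06, adjusted limma p 1.96e-07), and NNMT, a nicotinamide methyltransferase, fell by 0.51 in log2 units (adjusted limma p 1.01e-06). EGFR, the epidermal growth factor receptor, was higher by 0.24 (adjusted limma p 0.0163), a call lost without vehicle 2 or without octanoate 2.

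Of 17 further genes of the neural crest-like state 15 were tested, with 3 higher, 6 lower and a median log2 difference of -0.07. The transcription factor TFAP2B fell from 7634 and 7448 to 3746 and 3574 normalised counts (log2 difference -1.04, SE 0.06, adjusted limma p 1.16e-12). FOXD3, an early neural crest factor, fell from 752 and 645 to 305 and 231 (log2 difference -1.39, SE 0.12, adjusted limma p 2.08e-09). ETS1 rose by 0.44 in log2 units (adjusted limma p 2.11e-06), and MSX1 was higher by 0.34 (adjusted limma p 0.0115), which was lost without vehicle 2 or without octanoate 1. TFAP2B and FOXD3 were named because they had the smallest p among the 6 lower genes, so nothing is read from their sharing the direction of NGFR. SOX2, another gene of that list, had a log2 difference of 0.01 (adjusted limma p 0.957).

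Of 22 melanocyte lineage genes 18 were tested, with 4 higher, 5 lower and a median log2 difference of 0.04. By DESeq2 2 were higher and 5 lower. MITF fell by 0.48 in log2 units (SE 0.06, adjusted limma p 2.33e-06). S100B, a calcium-binding protein of melanocytes and glia, fell from 4234 and 3741 to 1917 and 1746 (log2 difference -1.12, SE 0.07, adjusted limma p 9.15e-12). BCL2A1, an antiapoptotic gene, rose from 89.3 and 87.2 to 344 and 331 (log2 difference 1.92, SE 0.14, adjusted limma p 7.99e-11), and EDNRB, the endothelin B receptor, rose by 0.37 (adjusted limma p 5.70e-05). MLANA did not pass (adjusted limma p 0.764).

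**Figure D4:**
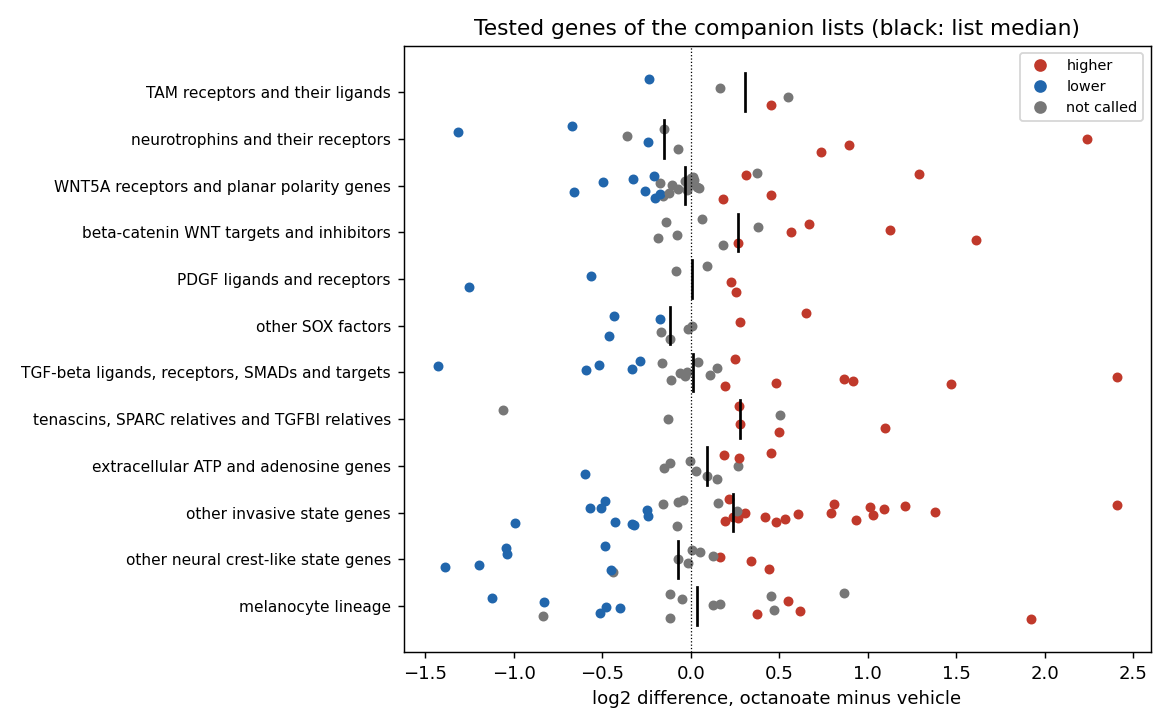
Log2 difference between octanoate and vehicle (x axis) of every tested gene in 12 companion lists (rows), coloured by call, with list medians in black. Of the 12 rows, 10 hold called genes on both sides of 0, and the list medians lie between -0.15 and 0.31.

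Over all 12 companion lists, 94 of 162 distinct tested genes were called, 53 higher and 41 lower, against 29.9% of all tested genes. The lists were drawn from genes of interest in melanoma with earlier results of these data known, so nothing is read from this share. With the 6 further calls among markers of other cell types the lists held 100 calls, and 40 without an intensity trend.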

How the data were processed

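RNA of A375 cells was sequenced in 4 libraries, 2 per group. Per the submitters' processing notes, hg38, bcl2fastq 2.17, Trim Galore, STAR 2.4, Picard, HTSeq 0.9.1 and DESeq2 were used; their roles and the annotation are not given in the sources used here. The deposited signal is a normalised count per gene. Each positive value was a whole multiple of its library's smallest (100% within 0.001), so whole reads were recovered. The authors' deposited table gives a mean signal, log2 fold changes, a test score, p-values and adjusted p-values.

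The 10 markers and the companion lists were chosen with earlier results of these data known. All tests were fitted on the whole table with limma 3.58.1 in R 4.3.3, pseudocount 1, minimum mean 10. Fold changes on this log2 scale understate those of low genes. With 2 libraries a group, the smallest two-sided p of an exact permutation test is 0.333. Named genes were the 10 markers, any gene of the lists of direct partners, and in the broader lists MITF, SOX10, MLANA, EGFR and the 2 called genes with the smallest p in each direction (some genes under this rule are not reported here). Alternatives were other pseudocounts, filters, scalings and priors, edgeR 4.0.16, DESeq2 1.42.0, the replicate number as a block, and leaving out each library. On counts simulated for this comparison (19939 genes), limma recovered 60.5% of changes of 0.5 on the log2 scale, 90.7% of 1 and 100% of 2, with 7 false calls among 162. Far fewer genes were changed in the simulation than were called in the data. Adjusted p-values depend on that share, so these rates hold for the simulated setting only.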

Additional observations from a re-analysis of the deposited data

How the results depend on the processing

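The 6 calls among the 10 markers kept their direction under the 16 alternatives. NT5E, TGFBI and NGFR were called in all 16 and ROR2 in the 15 that tested it (its mean is below 50), while AXL and WNT5A were lost without an intensity trend. The number of markers called was 4 without the trend, 5 with a minimum mean of 50, 7 with the replicate block and 6 otherwise. There were 2595 calls in all when every gene with a read was tested and 1625 without the trend, against 6048; in the companion lists, markers of other cell types included, these counts were 59 and 40, against 100. Leaving out 1 library, where the lone library of a group is assumed to vary like the pair of the other, gave 4295 to 4757 calls over the table and 77 to 86 in the lists. With GC content and exon length trends removed, an alternative chosen after seeing the data, the share of calls that were higher was 42.6%; for those 15141 genes it was 52.7% before removal. They are 74.8% of tested genes, too few, so for the table as a whole the check is void; all 10 markers were among them, and the same 6 were called. Signs turned for genes not called. Leaving out 1 library gave log2 differences from -0.117 to 0.0172 for TNC, -0.113 to 0.368 for MLANA, -0.193 to 0.0244 for PDGFRA, -0.100 to 0.0881 for ENTPD1, -0.0412 to 0.0442 for RYK, -0.0708 to 0.0853 for SOX2 and -0.0186 to 0.0822 for ADORA2B. ENTPD1 was 0.00897 with TMM factors and 0.000308 with the GC and length trends removed. RYK was -0.00575 and SOX2 -3.73e-05 with equal totals, -0.00491 and -4.77e-05 with DESeq2, and -0.0291 and -0.0442 with those trends removed. What the replicate numbers stand for is not in the labels. Deviations of same-numbered libraries had a Pearson r of 0.126 across genes. With the replicate block 8376 genes were called, and SPARC passed (limma adjusted p 0.0357). Depth limits ROR2 and SOX9.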
